A study of Mus musculus with 48 samples.

Results

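The genotype effect in H2O mice, that is the APP/PS1 H2O vs. WT H2O difference in gene expression, was compared between the cortex and the hippocampus. Every array of a mouse given H2O on which the scanner software had found its grid of spots was used, which gave 23 of the 48 arrays of the series. These came from 12 of the 24 mice, with 6 arrays for APP/PS1 cortex, 5 for WT cortex, 6 for APP/PS1 hippocampus and 6 for WT hippocampus. The APP/PS1 mice were heterozygous males of the APPswe/PS1dE9 line on a C57Bl6/J background, and the WT mice were littermates. All drank H2O without drug and were killed at 9 to 10 months of age, and per the methods they were perfused with saline before the tissue was taken. The other mice of the series received MSX-3, a prodrug of an antagonist of the adenosine receptor that Adora2a encodes, in the drinking water at 0.3 g/L from 3 months of age per the sample labels. The transgenes of this line are driven by the promoter of the mouse prion protein gene. RNA came from whole pieces of tissue, in which more cells of a type and more RNA per cell cannot be told apart.

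In this model amyloid plaques form in the cortex and the hippocampus during the first year of life. Microglia, the resident phagocytes of the brain, gather around plaques and switch on a set of genes for lipid sensing, phagocytosis and lysosomal breakdown. Astrocytes near plaques become reactive and make more of the filament protein GFAP and of complement. Astrocytes of the healthy hippocampus are known to hold more GFAP than those of the healthy cortex, so the starting level of a gene can differ between the tissues before any plaque has formed.

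The labelled tissues were checked against their markers. The 6 genes of cortical layers, among them Cux2, were higher in the WT cortex than in the WT hippocampus by a median of 2.95 on the log2 scale, and the 8 genes of hippocampal fields, among them Lct and Spink8, were lower by 4.33. The array of the WT cortex of mouse 310 had no grid (75th percentile intensity 4.18, against 632 to 1084 on the other arrays of H2O mice) and was left out, so that 11 mice gave both tissues. Prnp, whose promoter drives the transgenes, was higher in APP/PS1 mice, with a cortex log2 fold change of 2.03 and a hippocampus one of 1.72. The tissue difference of 0.31 was not called (BH adjusted p = 0.822, limma), which does not show that the rise was equal. The part of transgene level in the results was not tested. The App probe, of the mouse gene, lay between 5.36 and 6.09 on every array of all 4 groups. The arrays were scanned on 2 days, and all 6 APP/PS1 hippocampus arrays were scanned on the first, against 5 of 6 of APP/PS1 cortex, 2 of 5 of WT cortex and 2 of 6 of WT hippocampus.

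The question was whether the genes that changed in APP/PS1 mice changed to the same extent in both tissues. For each probe the log2 fold change of the hippocampus was subtracted from that of the cortex, so that a positive value means a larger rise, or a smaller fall, in the cortex. Larger and smaller refer to this signed value, so a deeper fall in the cortex counts as smaller. Of 38634 probes, 79 had a called difference that was larger in the cortex (0.204% of all probes, 66 named genes) and 6 had one that was smaller (0.0155%, 5 named genes). A call required 1.5-fold or more together with an adjusted p-value (BH) below 0.05. The median over all probes was 0.0019, and 50.4% of them were positive. The 79 probes had a median log2 fold change of 1.70 in the cortex against 0.70 in the hippocampus. Their median tissue difference was 1.02. The called genes are set out by group further on.

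Of the 79 probes, 77 were called higher in the APP/PS1 cortex (1.39% of all probes were) and 48 were called higher in the APP/PS1 hippocampus (0.466% of all probes). The other 29 of these 77 were called in the cortex alone, where 585 probes (1.51%) were called in either direction against 208 (0.538%) in the hippocampus, which by itself shows no difference between the tissues, and the difference was what the test addressed. The remaining 2 probes, of Eya4 and Olfr539, were called lower in the APP/PS1 hippocampus and are described further on. No probe was called in both tissues with opposite directions. A called tissue difference was found for 14.3% of the probes higher in the APP/PS1 cortex and for 27.2% of those higher in the APP/PS1 hippocampus. Among the 166 probes called in both tissues, 158 had a positive tissue difference. The median over the 166 was 0.66, and for 48 of the 166 the difference was itself called. In 77 of the 79 probes, the cortex minus hippocampus value of every APP/PS1 mouse lay above that of every WT mouse, which was so for 0.557% of the 38091 probes measured in all 11 mice. The probes had been called on these same mice, so the count is a description. With each mouse as a fixed block, 44 probes were called, 38 of them among the 85, and on the arrays of the first scan day alone 6 were called, 5 of them among the 85. Leaving out 1 mouse at a time gave 30 to 109, with 30 without mouse 255, 35 without mouse 81, 42 without mouse 259, 43 without mouse 325, 51 without mouse 308 and 56 without mouse 56. In the block and first-day settings every one of the 79 differences that could be computed (79 and 78) stayed positive. Both settings reuse arrays on which these probes were called as positive, so the signs too are only a description.

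**Figure D1:**
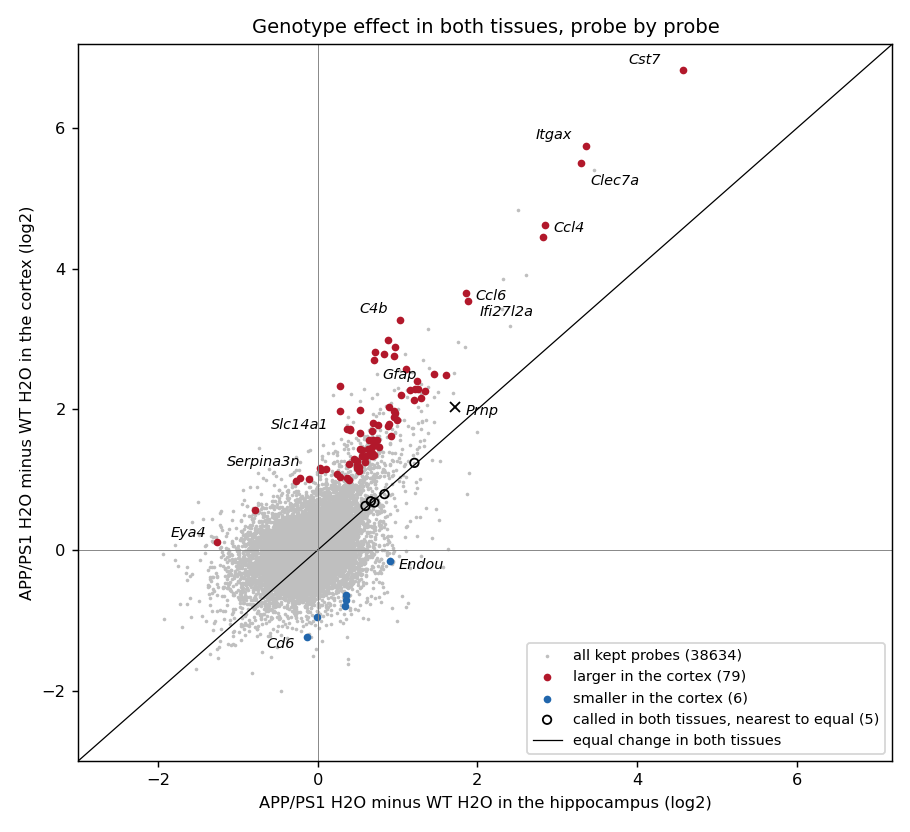
The log2 fold change of APP/PS1 H2O vs. WT H2O mice in the cortex (vertical) is plotted against that in the hippocampus (horizontal) for 38634 probes, with the 79 called as larger in the cortex in red, the 6 called as smaller in blue, the 5 genes called in both tissues that were nearest to equal as open circles, and Prnp as a cross. The red points lie above the line of equal change, most of them with a rise in both tissues.

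Genes that microglia switch on around plaques gave the list with the most calls. In this and all later lists a gene counts by its probe with the highest mean level. Of the 20 genes listed for this state, 11 had a called tissue difference, each larger in the cortex, as did 0.343% of the 16922 genes tested, and 19 of 20 were positive, with a list median of 0.87. The list held 17 genes called higher in the APP/PS1 cortex and 10 called higher in the APP/PS1 hippocampus. The members that were called included Itgax, Cst7, Clec7a, Ccl6, Gpnmb, Tyrobp, Lyz2, Trem2, Cd68, Cd9 and Ctsd. Apoe, Axl and Ctsb had differences of 0.12, 0.18 and -0.030, none of them called. Csf1, also listed, was not called by its probe with the highest mean level (0.27), although its other probes were called. The mean level of the list ranged from 1.71 to 2.21 over the APP/PS1 cortex arrays and from 1.35 to 1.59 over the APP/PS1 hippocampus arrays, with no overlap. In WT mice the order was turned round, from -0.20 to -0.024 in the cortex and from 0.19 to 0.41 in the hippocampus.

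Clec7a, which codes for the beta-glucan receptor dectin-1, had levels of 0.22 to 0.73 (median 0.46) in the APP/PS1 cortex and of -5.39 to -4.42 (median -5.11) in the WT cortex, as log2 intensity relative to the 75th percentile of the array. In the hippocampus the levels were -1.19 to -0.61 (median -0.96) in APP/PS1 mice and -4.48 to -3.87 (median -4.22) in WT mice. The WT hippocampus was thus the higher of the WT tissues and the APP/PS1 cortex the higher of the APP/PS1 tissues, and the genotypes did not overlap in either tissue. The rise was 45.4-fold in the cortex and 9.87-fold in the hippocampus, a difference of 2.20 on the log2 scale (SE 0.22, BH adjusted p = 1.31e-05, limma). In the 6 APP/PS1 mice the cortex exceeded the hippocampus by 1.30 to 1.5, whereas in the 5 WT mice with both tissues it was lower by values from -1.52 to -0.043.

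Trem2, a lipid-sensing receptor of microglia, was well above background on every array. Its levels were 3.49 to 4.07 (median 3.91) in the APP/PS1 cortex and 2.81 to 3.26 (median 2.91) in the APP/PS1 hippocampus. In WT mice they were 1.48 to 1.71 (median 1.55) and 1.45 to 1.86 (median 1.73), so that the tissues overlapped in WT mice and did not in APP/PS1 mice. The tissue difference was 1.03 (SE 0.15, BH adjusted p = 0.0016). Cd68, a lysosomal membrane protein of phagocytes, behaved likewise. Its WT levels were -0.31 to -0.16 in the cortex and -0.39 to -0.14 in the hippocampus, against 1.42 to 2.11 and 0.67 to 1.28 in APP/PS1 mice. The difference was 0.94 (SE 0.15, BH adjusted p = 0.00507), and 2 of the 3 Cd68 probes kept were called.

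The highest fold changes belonged to Cst7, the protease inhibitor cystatin F, which rose 114-fold in the cortex and 23.7-fold in the hippocampus. Its tissue difference of 2.27 (SE 0.46, BH adjusted p = 0.0349) was less certain than that of Clec7a, because WT levels spread from -5.43 to -4.12 in the cortex and from -5.10 to -2.74 in the hippocampus. The call was lost in 14 of the 28 other ways of processing, where the value ran from 1.66 to 2.56. Itgax, which codes for the integrin CD11c, had APP/PS1 levels of -0.87 to 0.028 in the cortex and -2.55 to -1.81 in the hippocampus. It was well above background on 1 of 5 WT cortex arrays and 1 of 6 WT hippocampus arrays, so its fitted difference of 2.39 (BH adjusted p = 0.000112) rests on WT values near background.

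Of 13 chemokine and chemokine receptor genes kept, 3 had a called difference, each larger in the cortex, 11 were positive, and the median was 0.53. For this list and those below, the share over all genes tested was again 0.343%. Ccl6, a chemokine of myeloid cells, had levels of 0.74 to 1.56 in the APP/PS1 cortex and -0.43 to 0.25 in the APP/PS1 hippocampus, against -2.66 to -2.25 and -2.32 to -1.72 in WT mice, and a difference of 1.8 (SE 0.20, BH adjusted p = 4.82e-05). Ccl4, which attracts monocytes and T cells, rose 24.6-fold in the cortex and 7.17-fold in the hippocampus (difference 1.78, BH adjusted p = 0.0201). That probe was well above background on 3 of 5 WT cortex arrays. A further Ccl4 probe gave 1.63, but was well above background on only 2 of 5 WT cortex and 4 of 6 WT hippocampus arrays. Both values thus rest in part on WT levels near background. Ccl9 had a difference of 1.06 (BH adjusted p = 0.0193) with a cortex log2 fold change of 1.16 and a hippocampus one of 0.099. The Ccl9 call was lost in 12 of 28 other ways of processing, and those of the Ccl4 probes in 9 of 28 and 14 of 27. Ccl3 and Cxcl10 had estimates of 1.95 and 2.32 that were not called (BH adjusted p = 0.364 and 0.274), with 95% intervals of 0.76 to 3.13 and 0.98 to 3.66. Ccl5 was called higher in both tissues, by 1.46 and 1.26, with a difference of 0.20 (95% interval -0.53 to 0.93). Csf1, a growth factor on which microglia depend, had called differences of 1.81 and 1.46 on a pair of probes and 0.27 on a further one that was not called, so its probes disagreed.

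Receptors that sense microbial products and antibodies formed the group with the next most calls. Of 15 Toll-like receptor, Fc receptor and partner genes, 5 had a called difference, each larger in the cortex, and all 15 were positive, with a median of 0.66. They were Ly86, a partner of a Toll-like receptor homologue (1.11, SE 0.14, BH adjusted p = 0.000209), Tlr2 (1.17, SE 0.17, BH adjusted p = 0.00183), Cd14, the co-receptor for lipopolysaccharide (1.02, SE 0.15), Fcgr1 (0.93) and Fcer1g, the signalling chain of Fc receptors (0.84, SE 0.14). The Tlr2 levels were -1.67 to -1.40 in the APP/PS1 cortex and -2.55 to -2.09 in the APP/PS1 hippocampus, against -4.14 to -3.26 and -3.57 to -3.14 in WT mice. As with Clec7a, the APP/PS1 tissues were apart and the ranges of the WT tissues overlapped. Within each WT mouse with both tissues the cortex was still the lower, with Tlr2 values of -0.65 to -0.12. Myd88, the adaptor below most Toll-like receptors, had a difference of 0.0079.

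Of 18 lysosomal genes, 3 were called, all larger in the cortex, and 16 were positive, with a median of 0.46. Ctss, a cathepsin of microglia, had levels of 4.38 to 4.81 in the APP/PS1 cortex, 4.00 to 4.11 in the APP/PS1 hippocampus, 2.94 to 3.35 in the WT cortex and 3.25 to 3.51 in the WT hippocampus, and a difference of 0.79 (SE 0.11, BH adjusted p = 0.00118). Ctsd and Gusb had differences of 0.66 and 0.72, and the Gusb call was lost in 15 of 28 other ways of processing. Among 12 complement genes, C4b and C1qc were called. C1qc, a chain of the C1q complex that microglia make, had a difference of 0.69 (SE 0.13, BH adjusted p = 0.0261). Of 15 genes of resting microglia, 12 were positive with a median of 0.30. Fcrls alone was called by the probe that stood for its gene (0.61, SE 0.11, BH adjusted p = 0.0185). Siglech, of the same list, had -0.050 by its probe with the highest mean level and 0.81 by another, which was called. Cx3cr1, the fractalkine receptor, had a difference of 0.51 with a BH adjusted p of 0.0271 but did not reach 1.5-fold, and Aif1 and Csf1r had 0.59 and 0.49 (BH adjusted p = 0.0529 and 0.0571). The list of resting microglia was itself higher in the APP/PS1 cortex, with array means of 2.25 to 2.51 against 1.75 to 1.87 in the WT cortex, and its part in the differences of the other microglial genes was not tested.

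**Figure D2:**
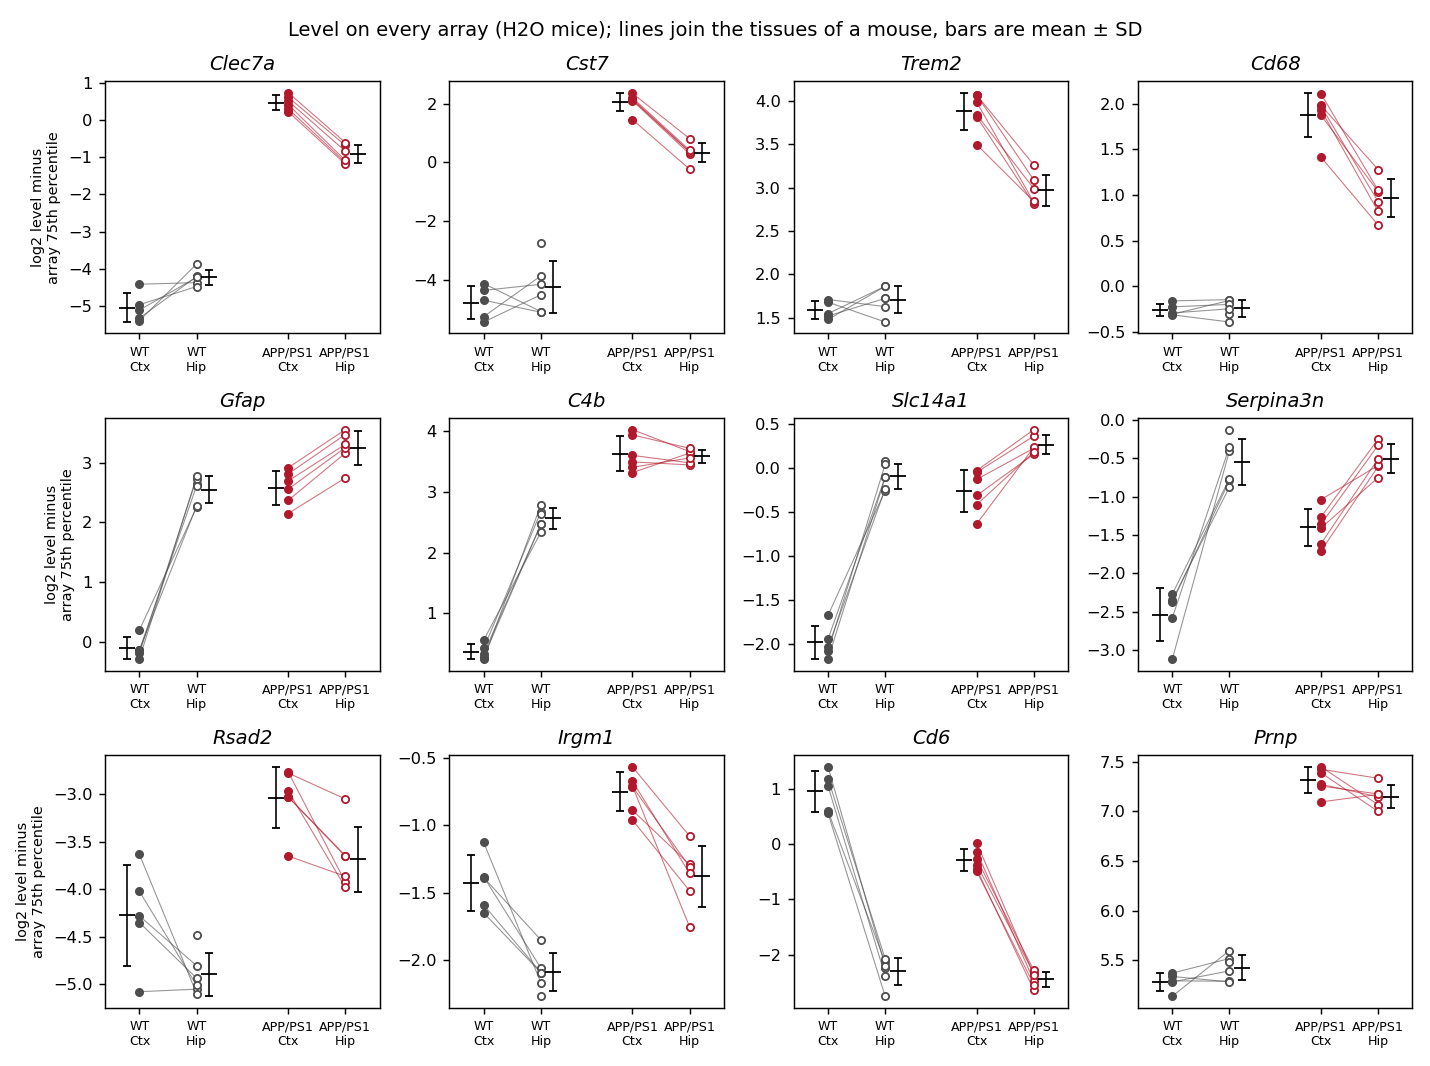
Each panel gives the level of a gene on every array of H2O mice (log2 intensity minus the 75th percentile of the array, vertical axis) in WT (grey) and APP/PS1 (red) mice, cortex filled and hippocampus open, with lines joining the tissues of a mouse and bars for mean ± SD. In the top row the APP/PS1 cortex is above the APP/PS1 hippocampus and the ranges of the WT tissues overlap. The mean WT cortex minus hippocampus value there is -0.81 for Clec7a, -0.53 for Cst7, -0.12 for Trem2 and -0.018 for Cd68. In the middle row the WT hippocampus is far above the WT cortex while the APP/PS1 tissues are nearer to each other.

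Gfap and complement C4 had another pattern of levels. In WT mice the hippocampus was far above the cortex, and in APP/PS1 mice the cortex had come close to it. Gfap, the filament protein of astrocytes, had levels of -0.29 to 0.20 (median -0.14) in the WT cortex and 2.26 to 2.77 (median 2.63) in the WT hippocampus. In APP/PS1 mice the levels were 2.15 to 2.92 (median 2.63) in the cortex and 2.75 to 3.56 (median 3.28) in the hippocampus. The APP/PS1 cortex therefore overlapped the WT hippocampus. The rise was 6.48-fold in the cortex and 1.62-fold in the hippocampus (difference 2.0, SE 0.21, BH adjusted p = 3e-05), and a further probe gave 1.92. The cortex was below the hippocampus by 0.60 to 0.79 in every APP/PS1 mouse and by 2.06 to 3.06 in every WT mouse.

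C4b, the fourth component of complement, showed the smallest adjusted p-value of all probes. Its WT levels were 0.25 to 0.56 (median 0.33) in the cortex and 2.34 to 2.79 (median 2.55) in the hippocampus. In APP/PS1 mice they were 3.32 to 4.03 (median 3.55) and 3.45 to 3.72 (median 3.6), so that the tissues overlapped and lay above both WT tissues. The difference was 2.24 (SE 0.16, BH adjusted p = 1.36e-07), from a rise of 9.63-fold in the cortex and 2.03-fold in the hippocampus. The cortex minus hippocampus mean was -2.20 in WT mice and 0.047 in APP/PS1 mice. C4a, a near-identical copy of C4b, had a difference of 1.96, and probes of this pair may share signal. C4b and Gfap were the only genes named by rule whose call held in all 28 other ways of processing.

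Slc14a1, a urea transporter of astrocytes, had levels of -2.17 to -1.68 in the WT cortex, -0.26 to 0.082 in the WT hippocampus, -0.63 to -0.028 in the APP/PS1 cortex and 0.16 to 0.44 in the APP/PS1 hippocampus. Here too the APP/PS1 cortex overlapped the WT hippocampus and the WT cortex stood apart. The difference was 1.36 (SE 0.15, BH adjusted p = 5.53e-05), and a further probe gave 1.30. Serpina3n, a protease inhibitor of reactive astrocytes, rose in the cortex from -3.11 to -2.27 in WT mice to -1.71 to -1.04 in APP/PS1 mice. In the hippocampus it lay at -0.88 to -0.13 and -0.75 to -0.25, with overlap of the genotypes (difference 1.09, SE 0.22, BH adjusted p = 0.0357). The Serpina3n call was lost in 14 of 28 other ways of processing.

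Not all genes of reactive astrocytes did so. Of 12 kept, Gfap and Serpina3n were called, 10 were positive and the median was 0.32. Osmr, the oncostatin M receptor, and Vim, the filament protein vimentin, had estimates of 0.87 and 0.44 (BH adjusted p = 0.62 and 0.754). None of 12 genes of astrocytes in general was called, with a median difference of 0.065 and log2 fold changes with a median of 0.12 in the cortex and 0.052 in the hippocampus. Aqp4, the water channel of astrocyte endfeet, had the largest of these differences by t, 0.31 (95% interval -0.039 to 0.65).

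The 79 probes were then described by their level in WT mice. For 19 of them, from 13 named genes, the WT hippocampus was more than 2-fold above the WT cortex, as it was for 4.12% of all 38634 probes. These were C4a, C4b, Capn3, Csf2rb2, Cyth4, Gfap, Gm31740, Gpnmb, Ifi204, Olfr539, Serpina3n, Slc14a1 and St8sia6, of which those outside the rule for named genes were chosen after their values were seen. Olfr539 was not well above background on any cortex array, so its ratio rests on cortex values at background. The median cortex minus hippocampus value of the 19 probes was -2.06 in WT mice and -0.53 in APP/PS1 mice, and in 17 of the 19 the APP/PS1 hippocampus was still the higher tissue. In the other 60 probes, from 53 genes, the median was -0.27 in WT mice and 0.66 in APP/PS1 mice, and the APP/PS1 hippocampus was the higher tissue in 1. The median rise in the cortex was alike, 1.73 in the former and 1.66 in the latter on the log2 scale. In the hippocampus it was 0.36 and 0.73, and 5 of 19 and 45 of 60 had a called genotype effect there. This split uses the same values as the difference and carries no test.

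**Figure D3:**
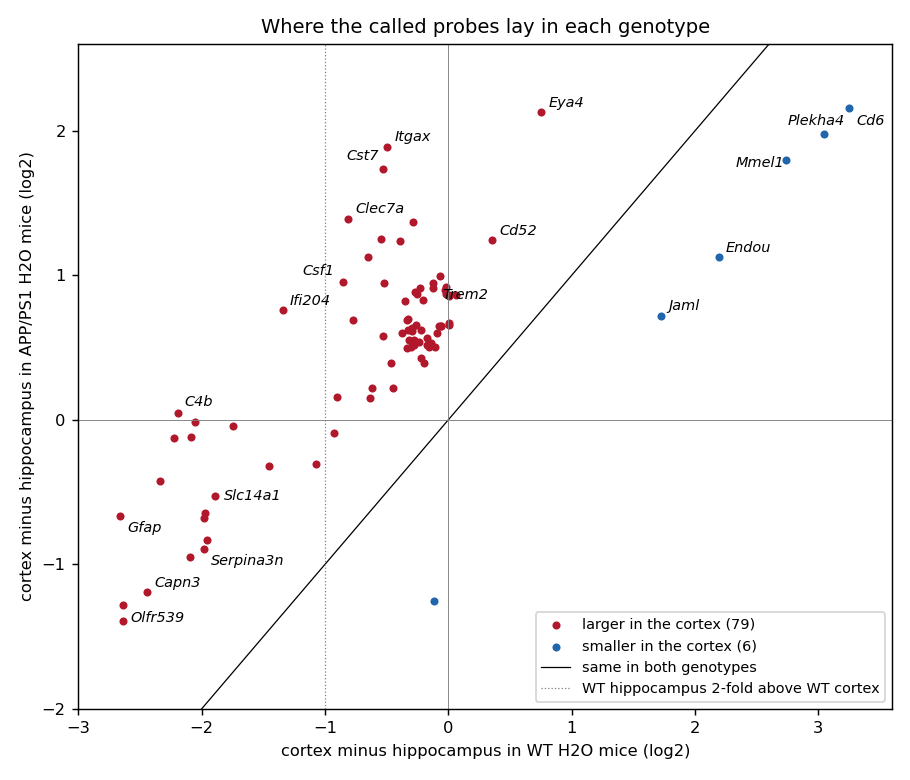
The cortex minus hippocampus level in APP/PS1 H2O mice (vertical, log2) is plotted against that in WT H2O mice (horizontal, log2) for the 85 called probes, red for a positive tissue difference (larger in the cortex) and blue for a negative one (smaller). A red group at the lower left, with Gfap, C4b and Slc14a1, starts from a WT hippocampus more than 2-fold above the WT cortex (dotted line), and the larger red group near a WT value of 0 lies at positive values in APP/PS1 mice.

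Of the genes listed for the interferon response and for antigen presentation, 1 had a called tissue difference. The lists do not hold every interferon-induced gene. Ifi204, an interferon-activated gene outside them, had a called difference of 2.10, with log2 fold changes of 2.82 in the cortex and 0.72 in the hippocampus. A further Ifi204 probe gave 1.13 and was not called. Of 16 interferon response genes kept, 14 were called higher in the APP/PS1 cortex and 12 in the APP/PS1 hippocampus, against 1.39% and 0.466% of all probes. The tissue difference was called for Ifi27l2a alone, a small interferon-induced protein (1.65, SE 0.32, BH adjusted p = 0.0284), whose call was lost in 12 of 28 other ways of processing. The median of the list was 0.30 and 14 of 16 were positive. Bst2, Oasl2 and Oas1a, all antiviral, had estimates of 0.77, 0.94 and 0.73 that were not called. Of 13 antigen presentation genes, 8 were called higher in the APP/PS1 cortex and 5 in the hippocampus, all 13 had a positive tissue difference, and none was called (median 0.37). H2-K1 and B2m, which form a class I molecule, had differences of 0.37 (95% interval 0.080 to 0.66) and 0.29 (95% interval 0.059 to 0.53).

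Among the 166 probes called in both tissues, those nearest to an equal change were of Themis2, Rsad2, H2-L, Irgm1 and Ccrl2, named for that reason. Rsad2, the antiviral protein viperin, had levels of -3.65 to -2.77 in the APP/PS1 cortex and -5.08 to -3.63 in the WT cortex, with a slight overlap. In the hippocampus it had levels of -3.98 to -3.05 in APP/PS1 mice and -5.10 to -4.48 in WT mice. The log2 fold changes were 1.24 and 1.21, and the 95% interval of the difference ran from -0.58 to 0.64. Irgm1, an interferon-inducible GTPase, changed by 0.68 and 0.71, with an interval of -0.36 to 0.29, and Ccrl2, an atypical chemokine receptor, by 0.79 and 0.84, with an interval of -0.37 to 0.29. The interval of Rsad2 still holds a difference of 1.5-fold, and H2-L belongs to a family of near-identical class I genes whose probes may share signal.

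The promoters of these groups were searched for a pair of motifs on both strands, GAAA followed after 2 bases of any kind by GAAA, an interferon response element, and GAGGAAGT, bound by the myeloid factor PU.1, in the 250 bases before the start (RefSeq, GRCm38.p6). The first was present in 6 of 13 promoters of 12 interferon response genes (46.2%), in 1 of 21 promoters of 17 plaque-induced genes of microglia (4.76%), in 2 of 55 promoters of 48 genes called as larger in the cortex (3.64%) and in 2.98% of all 32851 promoters. The second was present in 3 of those 55 (5.45%), in 1 of the 21 (4.76%), in none of the 13 and in 2.44% of all promoters. The following promoters are shown because they belong to genes described here that hold a match, Rsad2 and Oas1a raised in both tissues and Ctss and C1qc with the larger rise in the cortex. Capitals mark the match, and in Oas1a overlapping matches run together.
Rsad2, chr12:26456453-26456702, minus strand: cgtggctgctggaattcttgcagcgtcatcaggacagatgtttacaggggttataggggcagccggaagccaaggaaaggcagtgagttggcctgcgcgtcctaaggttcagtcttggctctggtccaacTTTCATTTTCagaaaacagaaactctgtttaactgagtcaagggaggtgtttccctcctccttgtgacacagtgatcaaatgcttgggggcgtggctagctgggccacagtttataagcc
Oas1a, chr5:120907526-120907775, minus strand: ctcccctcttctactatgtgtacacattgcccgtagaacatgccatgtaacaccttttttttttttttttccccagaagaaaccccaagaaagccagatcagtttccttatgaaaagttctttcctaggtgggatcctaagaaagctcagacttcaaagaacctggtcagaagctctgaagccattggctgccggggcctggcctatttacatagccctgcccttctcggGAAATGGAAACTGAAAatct
Ctss, chr3:95526536-95526785, plus strand: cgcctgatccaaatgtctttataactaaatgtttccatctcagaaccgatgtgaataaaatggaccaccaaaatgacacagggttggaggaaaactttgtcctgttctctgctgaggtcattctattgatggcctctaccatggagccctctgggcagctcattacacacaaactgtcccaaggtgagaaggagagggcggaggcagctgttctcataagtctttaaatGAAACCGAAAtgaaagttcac
C1qc, chr4:136892915-136893164, minus strand: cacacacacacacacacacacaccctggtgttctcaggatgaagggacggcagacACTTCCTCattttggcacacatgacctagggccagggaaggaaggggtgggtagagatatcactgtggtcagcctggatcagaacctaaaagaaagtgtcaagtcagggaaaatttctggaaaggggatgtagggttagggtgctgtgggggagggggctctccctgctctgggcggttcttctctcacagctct
A match is only a run of letters, and binding was not measured here.

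The 6 probes with a negative tissue difference were of Cd6, Plekha4, Endou, Jaml and Mmel1, and 1 without a name. Of these probes, 5 were called lower in the APP/PS1 cortex and not called in the hippocampus. The remaining 1 was called higher in the APP/PS1 hippocampus. Each of the 5 named genes was higher in the WT cortex than in the WT hippocampus, by 1.72 to 3.25, and that lead was smaller in APP/PS1 mice, from 0.72 to 2.15. Cd6, known as a receptor of T cells, had levels of 0.55 to 1.39 (median 1.05) in the WT cortex and -0.50 to 0.018 (median -0.32) in the APP/PS1 cortex. In the hippocampus it had -2.75 to -2.08 in WT mice and -2.64 to -2.28 in APP/PS1 mice. The genotypes were apart in the cortex and overlapped in the hippocampus (difference -1.10, SE 0.20, BH adjusted p = 0.0193). Mmel1, a metallo-endopeptidase related to neprilysin, fell in the cortex from -1.22 to -0.61 in WT mice to -2.36 to -1.73 in APP/PS1 mice, with a hippocampus log2 fold change of -0.014 (difference -0.94, BH adjusted p = 0.0428). Jaml, a junctional adhesion molecule, fell by 0.64 in the cortex and had a value of 0.36 in the hippocampus that was not called (difference -1.0, BH adjusted p = 0.0104). Endou, an endoribonuclease, rose by 0.90 in the hippocampus and had a value of -0.16 in the cortex (difference -1.07, BH adjusted p = 0.0262). Of 28 other ways of processing, the call was lost in 5 for Jaml, 6 for Cd6, 11 for Endou, 14 for Plekha4 and 16 for Mmel1. None of the 6 genes of T cells kept was called in any comparison.

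Eya4, a transcriptional coactivator, and Olfr539, an olfactory receptor, were called as larger in the cortex because they were lower in the APP/PS1 hippocampus. Neither was well above background on any APP/PS1 hippocampus array. Olfr539 was not well above background on any cortex array either, and was kept only through the WT hippocampus (5 of 6 arrays). Set against the lowest signal that counted as above background, Eya4 was at least 1.01-fold and Olfr539 at least 1.29-fold higher in the WT hippocampus. A further Eya4 probe had a difference of -0.0082. Of the 71 called genes, 19 had a kept probe that was not called, and in 3 (Eya4, Siglech and Syngr1, the latter pair named after their values were seen) probes differed in sign.

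**Figure D4:**
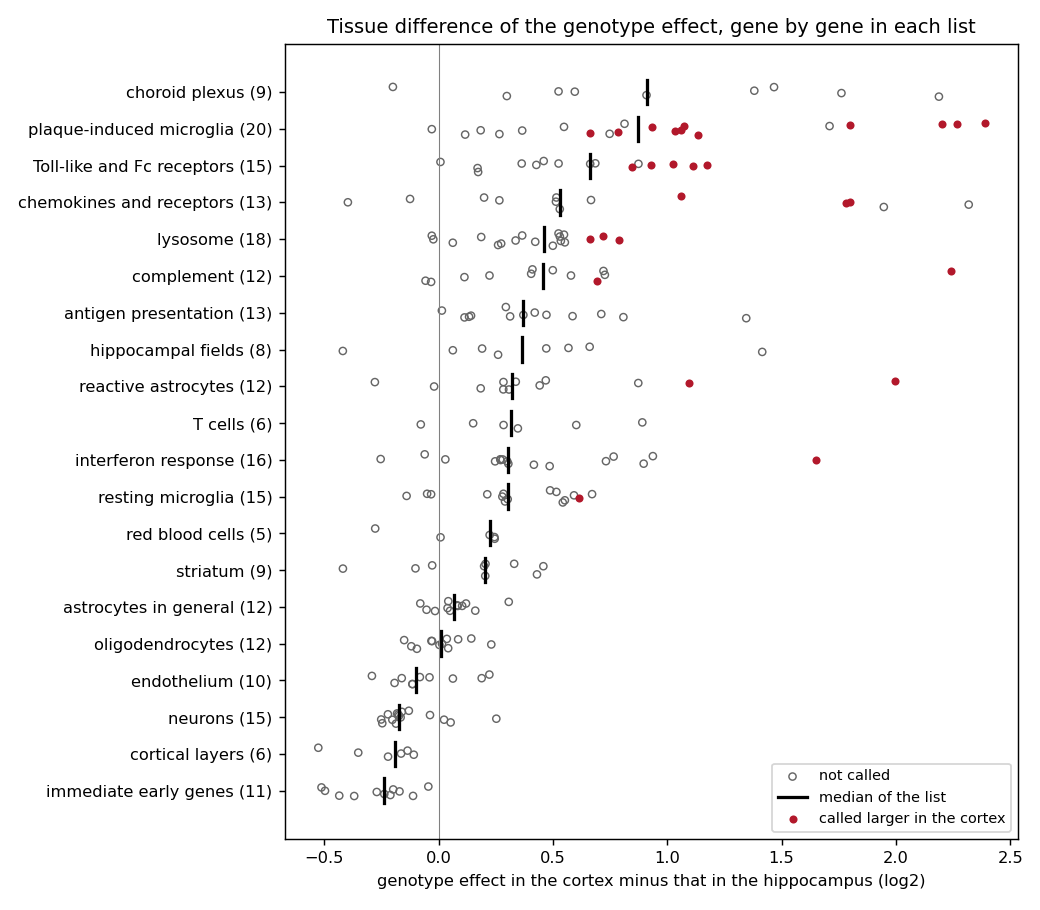
Each point is a gene, placed by its tissue difference (log2, horizontal, positive for a larger rise in the cortex) in rows of gene lists ordered by their median (black bar), with called genes filled in red and the number of genes kept in brackets. The calls fall in the lists of microglia, receptors, chemokines, lysosome, complement, reactive astrocytes and interferon response, and the choroid plexus genes spread widely without a call.

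Lists of other cell types held no called difference. The 15 genes of neurons had a median difference of -0.17, with 3 positive, and Gad2 and Syt1 had -0.22 and -0.20. The 12 genes of oligodendrocytes had a median of 0.0090 and the 10 genes of endothelium one of -0.098. All 11 immediate early genes, which respond to neuronal activity, had negative differences, with a median of -0.24 and a range of -0.51 to -0.045. The 6 genes of cortical layers were also all negative (median -0.19) and 7 of 8 genes of hippocampal fields positive (median 0.37), and the part of dissection in the results was not tested. The choroid plexus list had a median of 0.91, and its mean level on hippocampus arrays ranged from -3.69 to 2.03 in WT mice and from -3.39 to 2.0 in APP/PS1 mice, so that its genes varied widely within each genotype, and its part in the results was not tested. Aqp1, a water channel of the choroid plexus, had a difference of 2.19 with a 95% interval of -1.13 to 5.51. The red blood cell, T cell and striatum lists had medians of 0.22, 0.32 and 0.20. Of 11 genes that the study named, chosen on these samples and so no independent evidence, 7 were called, with a median of 1.95. Adora2a, the gene of the receptor that MSX-3 blocks, had a difference of 0.20 (95% interval -0.86 to 1.27).

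The same contrast was computed in the 23 arrays with a grid of the 12 mice that drank MSX-3, none of which entered the comparison above. There 97 probes were called as larger in the cortex (0.251%) and 1 as smaller. Of the 79 probes called in H2O mice, 77 were positive in MSX-3 mice, where 47.3% of all probes were, and 54 were called. An unadjusted p-value under 0.05 with a positive sign was found for 74 of the 79, as for 5.01% of all probes. Their median difference was 0.94, against -0.018 over all probes. C4b, Gfap and Slc14a1 had differences of 2.51, 2.0 and 1.41 in MSX-3 mice, and Clec7a, Trem2 and Cd68 had 1.95, 1.18 and 0.91, each called. Itgax and Cst7 had 1.84 and 1.96 and were not called (BH adjusted p = 0.0774 and 0.0768). The 2 probes with a negative value were those of Eya4 (-0.52) and Olfr539 (-0.45). Of the 6 probes called as smaller in the cortex, 5 were negative in MSX-3 mice, none was called, and the median was -0.50. The list medians were 0.94 for plaque-induced microglia (12 of 20 genes called), 0.36 for interferon response (none called) and 0.25 for reactive astrocytes (1 called). Toll-like and Fc receptors had 0.33 against 0.66 in H2O mice, and resting microglia had 0.53 against 0.30. The median of neurons was 0.089 against -0.17, and 4 of 11 immediate early genes were positive against none in H2O mice. Rsad2, with a difference of 0.029 in H2O mice, had 1.11 in MSX-3 mice (BH adjusted p = 0.467), and choroid plexus and T cell genes had medians of -0.11 and -0.30. Whether the difference itself changed with MSX-3 was not tested.

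**Figure D5:**
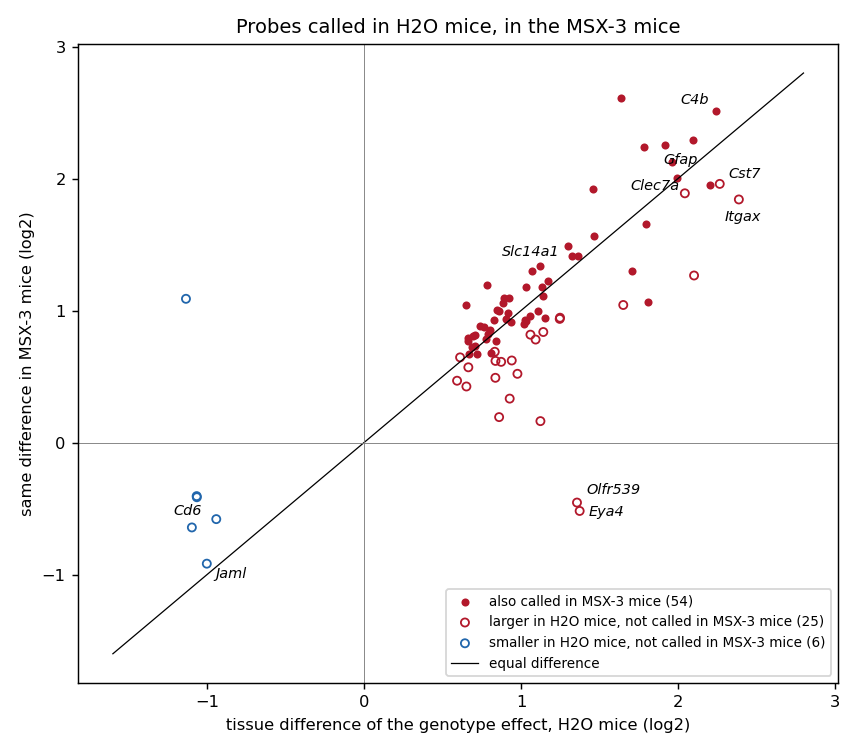
For the 85 probes called in H2O mice, the tissue difference of the genotype effect in MSX-3 mice (vertical, log2) is plotted against the same value in H2O mice (horizontal, log2), filled where it was also called in MSX-3 mice (54). Most points lie near the line of equal difference, and Eya4 and Olfr539 lie below 0 in MSX-3 mice.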

How the data were processed

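Total RNA of the cortex and hippocampus of each mouse had been hybridised by the authors to Agilent whole mouse 60-mer one-colour arrays and scanned with Feature Extraction 10.7.3.1. The deposited files hold the background-corrected intensity of each spot, and the deposited series matrix gives the same values, without a log transform. Here, the 75th percentile of each array was taken over all its non-control spots, and its log2 was subtracted from log2 of the processed intensity. Spots flagged as outliers were then left out, and the remaining spots of a probe were averaged. Probes had to lie well above background on 4 or more arrays in 1 or more of the 4 groups (38634 of 56605). Symbols came from RefSeq accessions (32994 probes) and from the study's tables (55 more). The remaining 23556 probes had no name here.

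The tissue difference of the genotype effect was tested with limma 3.58.1 in R 4.3.3 (lmFit and eBayes), with the mouse as a random block (duplicateCorrelation) and BH adjusted p-values over all kept probes. Calls needed an adjusted p-value under 0.05 and a difference of at least 1.5-fold. Pairing rests on the labels, which give both tissues of a mouse the same number. The mouse correlation was -0.0150, and the deviations of both tissues of a mouse correlated with a median of -0.15 over 11 mice. The genotypes are separate mice, while the tissues of a genotype come from the same mice, and the number of mice limits the precision. The script was tested on simulated data.

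A gene was represented by the probe with the highest mean level. Genes were named as the 12 largest and 8 most negative called differences well above background on at least 50% of the arrays of each group, the genes the study named, up to 4 per list by moderated t, those called in opposite directions, the 5 nearest to equal, and the 5 largest called without that detection. The lists and members were chosen with earlier results of these data known, and genes outside this rule are those of a list or named as chosen after their values were seen. Alternatives covered background correction, normalization, filters, blocks, array weights and leaving out each mouse.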

Additional observations from a re-analysis of the deposited data

Results flagged for a closer look

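The following genes differed between the tissues by the test of the difference itself, among the 85 probes called. Larger in the cortex, on the log2 scale, were Itgax (2.39), Cst7 (2.27), C4b (2.24), Clec7a (2.20), Ifi204 (2.10), Gfap (2.0), C4a (1.96), Csf1 (1.81), Ccl6 (1.8), Ccl4 (1.78 and 1.63), Ifi27l2a (1.65), 5730416F02Rik (1.46), Eya4 (1.37), Slc14a1 (1.36), Olfr539 (1.36) and Gm31740 (1.33). Smaller values were those of Tlr2 (1.17), Ly86 (1.11), Serpina3n (1.09), Ccl9 (1.06), Trem2 (1.03), Cd14 (1.02), Cd68 (0.94), Fcer1g (0.84), Ctss (0.79), Gusb (0.72), C1qc (0.69), Ctsd (0.66) and Fcrls (0.61). Negative differences, that is smaller in the cortex by sign, were those of Cd6 (-1.10), Plekha4 (-1.07), Endou (-1.07), Jaml (-1.0) and Mmel1 (-0.94). A further probe of Ifi204, which belongs to a family of near-identical genes, was not called.

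In 21 of 332 groups, over 83 probes, 1 array stood apart from the others of its group, where chance gives about 5%. In the APP/PS1 cortex, mouse 261 was apart for Cst7 (1.46), Cd68 (1.42), C1qc (2.73) and Osmr (-1.74), mouse 255 for App (5.54) and mouse 325 for Rsad2 (-3.65). In the APP/PS1 hippocampus, mouse 259 was apart for the choroid plexus genes Aqp1 (0.92) and Kcnj13 (1.67), mouse 261 for Rsad2 (-3.05), mouse 323 for Itgax (-1.81), mouse 325 for Themis2 (-2.03) and Olfr539 (-6.19), and mouse 81 for Npas4 (0.73). In the WT cortex, mouse 56 was apart for Aif1 (0.58), mouse 258 for Cd14 (-2.05) and mouse 308 for Kcnj13 (-2.18). In the WT hippocampus, mouse 258 was apart for Csf1 (-5.17) and Cd14 (-2.19), mouse 71 for Adora2a (-1.55), and mouse 56 for Mog (0.31) and Slc4a1 (-3.54).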

How the results depend on the processing

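The tissue difference, called for 85 probes, was called for 93 without the replicate block and for 44 with each mouse as a fixed replicate block. It was called for 52 after quantile normalization, 128 with array weights, 128 with scan day as a block, 6 on the first scan day alone, 3 with the array without a grid added and 136 with the MSX-3 groups in the fit. Leaving out each mouse gave 30 to 109. The cortex count of 585 became 349 with normexp, 1180 with array weights and 176 with the added array (524 to 632 without each mouse). The hippocampus count of 208 became 102 with normexp, 127 with slide as a block, 78 on the first scan day and 38 with the added array (174 to 228 without each mouse). The 79 larger differences stayed positive wherever tested, except 4 with the added array, and the 6 smaller ones stayed negative. All these settings reuse arrays on which the probes were called, so the kept signs are no independent evidence.

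List medians moved as follows. With normexp they were 0.75 for plaque-induced microglia, 0.37 for Toll-like and Fc receptors and 1.07 for the genes named by the study. With slide as a block they were 0.99 for plaque-induced microglia, 0.43 for resting microglia and -0.035 for striatum. With the stricter filter in every group, Toll-like and Fc receptors had 0.52. Red blood cells had -0.19 with the fixed block, 0.53 with array weights and -1.46 on the first scan day, where the genes named by the study had 1.23. With the added array the medians were 1.15 for plaque-induced microglia, 0.69 for resting microglia, 0.091 for chemokines, 0.46 for Toll-like and Fc receptors, 0.92 for lysosome, 0.78 for astrocytes in general, 0.84 for neurons, 0.094 for cortical layers, 0.069 for hippocampal fields, 1.17 for Prnp and App together and 1.20 for the genes named by the study. Without each mouse the medians ran from 0.82 to 1.0 for plaque-induced microglia, 0.27 to 0.41 for resting microglia and -0.19 to 0.40 for red blood cells. In these settings the medians of red blood cells, striatum, neurons and cortical layers, none with a called member, changed sign, as did small medians of astrocytes in general, oligodendrocytes, endothelium and Prnp with App in settings where they moved by less than the spread between mice. No called difference changed sign except with the added array, and the cause of these shifts was not tested. Dim probes, such as Itgax in WT mice and Olfr539 in the cortex, were limited by their signal over background.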
